A study of Mus musculus with 30 samples.

Results

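Sulfur amino acid supplementation of a 20% soy diet was examined in the liver, as the contrast of Soy-20% + SAA with Soy-20%. The members were the 12 libraries labelled with these diets, 6 livers each, of 30 liver libraries from 5 diets in the series. Protein was the same on both diets, at 20% soy isolate, and only the free methionine and cystine added to the feed differed. By the labels, methionine and cystine were 0.22 g each in 100 g of Soy-20%, and 0.58 g and 0.41 g with the supplement. The study's methods list slightly different contents for some of the diets. All mice were male C57BL/6J and singly housed, and both soy groups were fed Soy-20% for the acclimation period before the diets were assigned at 12 weeks of age. They stayed on them for 12 weeks, were fasted for 4 h before tissue collection, and were 6 months old by the labels. Each diet had 10 mice, of which 6 livers were sequenced. How these were picked is not given in the sources used here. Each library came from 1 mouse, so the mouse is the replicate. The other libraries used here were 6 of Cas-20% (20% casein, 0.57 g methionine and 0.41 g cystine) and 6 of Cas-5% (5% casein, 0.15 g and 0.1 g), with levels from 6 of Soy-10% (11.5% soy by the labels, 0.13 g of each).

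Methionine is activated in the liver to S-adenosylmethionine, which donates methyl groups and returns through homocysteine to methionine. Homocysteine can instead enter transsulfuration, which makes cysteine, the precursor of glutathione, taurine and sulfate, and cystine is the oxidised pair of cysteines by which cysteine is fed. Soy protein is poor in methionine relative to casein, and a shortage of an amino acid can engage the transcription factor ATF4, whose targets include amino acid synthesis genes and the hormone gene *Fgf21*. The comparison thus asks which liver transcripts differed when sulfur amino acids alone were brought from the level of soy to that of casein.

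Reads were counted at the 3′ ends of transcripts with a poly(A)-primed kit. Counts per liver summed to 9993509 to 12046128 on Soy-20% and to 9788023 to 14565542 on Soy-20% + SAA. Libraries 3 to 6 of Soy-20% + SAA stood apart, in that transcripts ending in AT-rich sequence were underrepresented. Regressing each gene's level on the share of G and C in its final 200 transcript bases gave slopes of 0.061, 0.196, 0.187 and 0.210 log2 units per 10% GC for libraries 3 to 6. The other pair of supplemented libraries had slopes of -0.026 and -0.030, and the Soy-20% libraries lay between -0.036 and -0.017. Results are therefore also given for livers 1 and 2 of Soy-20% + SAA alone against the 6 Soy-20% livers, a smaller fit that reuses the same libraries and is no independent test. Of 13 hepatocyte markers listed, 12 were in the table, and their summed normalized count was 831000 to 957000 per liver on Soy-20% and 857000 to 982000 on Soy-20% + SAA, so the groups overlapped. In bulk tissue, fewer cells of a type and less RNA per cell cannot be told apart.

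**Figure D1:**
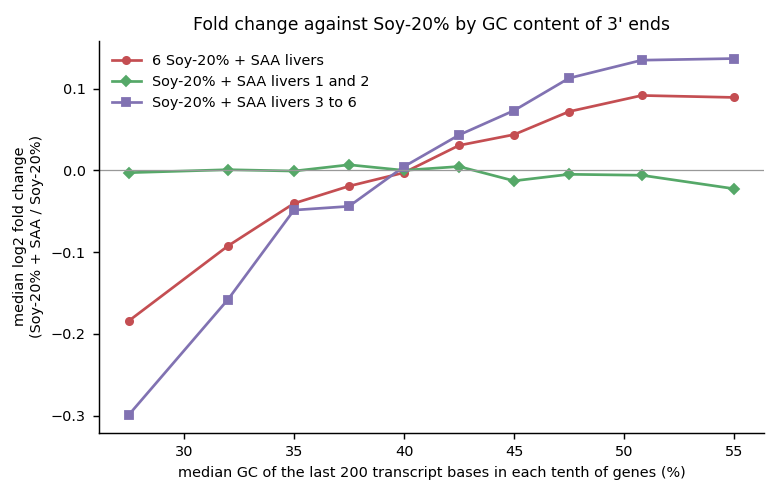
Median log2 fold change of Soy-20% + SAA against Soy-20% (vertical axis) in 10 equal bins of the genes tested, placed by the median GC content of the last 200 transcript bases (horizontal axis, %). With all 6 livers the median ran from -0.18 in the most AT-rich bin to 0.09 in the most GC-rich bin, and with livers 3 to 6 from -0.30 to 0.14, while the line of livers 1 and 2 stayed near 0.

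Of 11932 genes tested with edgeR's quasi-likelihood test, 1 passed an adjusted p of 0.05, which is 0.00838% of them. An unadjusted p under 0.05 was reached by 1159 genes that were higher with the supplement (9.71%) and by 1733 that were lower (14.5%). All 6 supplemented livers lay above all 6 Soy-20% livers for 102 genes (0.855%) and below them for 142 genes (1.19%). With livers 1 and 2 alone, 404 of 12396 genes (3.26%) were higher and 440 (3.55%) lower at an unadjusted p under 0.05, and none passed adjustment. The adjusted p-values of the 12-liver fit crowded just above the threshold, with 54 genes under 0.055, and the number called depended strongly on the setting. With a smooth trend on 3′ GC removed from each library, edgeR called 60 genes, 27 higher and 33 lower. In that fit 2835 genes (23.8%) still had an unadjusted p under 0.05, close to the 2892 (24.2%) without the correction. A call there therefore does not show that a difference is free of the 3′ bias. With the GC slope of each library as a covariate instead, edgeR called 0, and 1019 genes (8.54%) had an unadjusted p under 0.05. "Called" below refers to the 12-liver fit unless that trend-corrected fit is named.

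The called gene was *Chic1* (chromosome X, 103356476 to 103396092, GRCm38), which encodes a cysteine-rich hydrophobic domain protein. On Soy-20% its normalized count had a lowest, median and highest value of 12.2, 14 and 21.1, and on Soy-20% + SAA of 31.5, 41.8 and 47.5. Normalized counts here are the authors' values, scaled per library by DESeq2 size factors and not for length, so levels are compared within a gene only. The groups did not overlap, and the supplemented mean was 41.4 ± 5.57 (SD, n = 6) against 15.9 ± 3.91. *Chic1* rose by 1.37 on the log2 scale (95% confidence interval 1.0 to 1.74, edgeR adjusted p = 0.0139). It was 1.31 higher in livers 1 and 2 alone (0.71 to 1.90) and was called in the trend-corrected fit (edgeR adjusted p = 0.0152). The call was lost without Soy-20% liver 2, 3, 4 or 5 or supplemented liver 5 or 6, each left out in turn, with log2 differences of 1.3 to 1.37.

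A stricter selection was made of genes with an unadjusted p under 0.05 both with all 6 supplemented livers and with livers 1 and 2 alone, in 1 direction, with no overlap between diets and a mean of 10 or more normalized counts on 1 diet. It held 144 genes, 61 higher and 83 lower with the supplement. Of these, 43 were called in the trend-corrected fit, beside 60 of all 11932 genes. That fit used the same 12 libraries as the selection, so these calls are no independent support. With the GC slope as a covariate 0 genes were called. In the selection, the median 3′ GC content was 43.8% for the higher and 37.5% for the lower genes, against 41.2% over all genes tested. Since the selection used these values, its members' fold changes and their lack of overlap, here and below, are a description.

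Beside *Chic1*, the largest higher values belonged to *Dct* (chromosome 14, 118012790 to 118052244), an enzyme of melanin synthesis, and *Upp2* (chromosome 2, 58567298 to 58792971), a uridine phosphorylase. *Dct* had a lowest, median and highest normalized count of 22.5, 53.7 and 67.4 on Soy-20% and of 69, 114 and 240 on Soy-20% + SAA, a log2 difference of 1.34 (0.67 to 2.02). The lowest supplemented *Dct* value lay just above the highest Soy-20% value, and the difference in livers 1 and 2 alone was 0.70 (0.07 to 1.34). *Upp2* had 1160, 1820 and 2430 on Soy-20% and 2600, 4070 and 5260 on Soy-20% + SAA, a log2 difference of 1.11 (0.68 to 1.54) that was 0.59 in livers 1 and 2 and was called in the trend-corrected fit (edgeR adjusted p = 0.0494). Livers 1 and 2 were the lowest of the supplemented group for this gene.

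*Synj2*, an inositol lipid phosphatase, had 14.6 to 33.7 normalized counts on Soy-20% and 42 to 69 on Soy-20% + SAA, a log2 difference of 1.11 that was 0.82 in livers 1 and 2. *Wipf3*, a gene of the family that binds the actin regulator WASP, had 118 to 206 and 226 to 370, a difference of 0.85 (0.71 in livers 1 and 2). Both were called in the trend-corrected fit, as was *Thnsl1*, a threonine synthase-like gene, at 15.7 to 25.1 and 27.7 to 50.3 (0.85, and 0.70 in livers 1 and 2). The other 2 of the 8 largest higher values were those of *Crybg2* (11.8 to 23.1 against 27.8 to 43, log2 difference 0.92, and 1.17 in livers 1 and 2) and *Gm10138* (15.7 to 27.1 against 27.6 to 41.9, log2 difference 0.85, and 0.71 in livers 1 and 2). None of these 5 genes overlapped between the diets, as the selection required. The smallest of the 8 was 0.85 and the next gene outside them stood at 0.77.

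Among the lower genes, *Sdr9c7* (chromosome 10, 127898518 to 127911761), of the short-chain dehydrogenase family, was the clearest. It had a lowest, median and highest normalized count of 417, 483 and 709 on Soy-20% and of 121, 178 and 282 on Soy-20% + SAA. The groups lay well apart, with livers 3 to 6 holding both the highest and the lowest supplemented values. The log2 difference was -1.50 (-1.99 to -1.02), or -1.14 in livers 1 and 2 alone (-1.55 to -0.72), and it was called in the trend-corrected fit (edgeR adjusted p = 0.0189).

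*Mup9* (chromosome 4, 60418046 to 60421952), a major urinary protein gene, had 814, 1440 and 4280 on Soy-20% and 235, 448 and 752 on Soy-20% + SAA. The spread on Soy-20% was wide. As the selection required, the lowest Soy-20% liver was above the highest supplemented one. The log2 difference was -2.11 (-3.02 to -1.21) with all livers and -2.17 in livers 1 and 2. It was called in the trend-corrected fit (edgeR adjusted p = 0.0494). Major urinary protein genes are near-identical copies, so the assignment of these reads to *Mup9* is uncertain.

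The other 6 of the 8 largest lower values were those of the mediator subunit gene *Med30* (log2 difference -1.90), *Nup62cl* (-1.72), the ligand gene *Raet1d* (-1.59), the F-box gene *Fbxl4* (-1.44), the GTPase gene *Gpn2* (-1.35) and the exocyst gene *Exoc6* (-1.33). In livers 1 and 2 these differences were -0.80, -0.85, -1.36, -0.39, -0.58 and -0.46, so that for all but *Raet1d* the difference was much smaller in those livers. *Fbxl4* had 64 and 65.1 normalized counts in supplemented livers 1 and 2, 4.79 to 29 in livers 3 to 6, and 72.7 to 95.5 on Soy-20%. Its 3′ GC content was 24%, and that of *Med30* was 21%, whereas that of *Gpn2*, also lowest in livers 3 to 6, was 49.5%. The part of the 3′ bias in these values was not tested gene by gene.

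**Figure D2:**
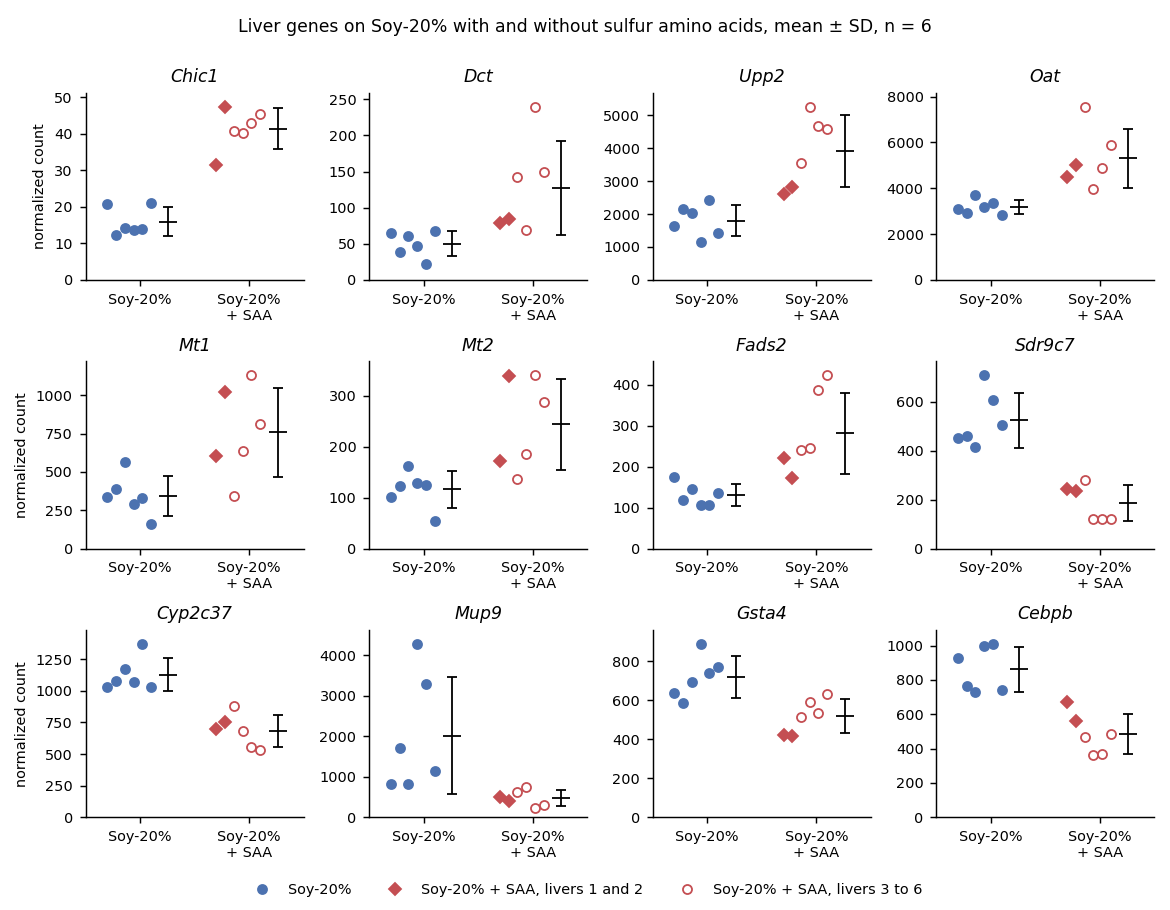
Normalized counts (vertical axes, from 0) of 12 genes in each liver of Soy-20% (filled circles) and Soy-20% + SAA (diamonds for livers 1 and 2, open circles for livers 3 to 6), with black marks for the mean ± SD of 6 livers. *Chic1*, *Dct*, *Upp2*, *Oat*, *Sdr9c7*, *Cyp2c37*, *Mup9* and *Cebpb* are of the stricter selection, which required no overlap between diets. *Mt1*, *Mt2*, *Fads2* and *Gsta4* overlapped in 1 or more livers.

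The metallothionein genes *Mt1* and *Mt2* encode small cysteine-rich proteins that bind zinc and copper, and they are induced by zinc through the transcription factor MTF1. They lie side by side on chromosome 8, with RefSeq starts 6471 bases apart. The promoter windows are shown because both genes differed in the same direction, and each runs from 250 bases before to 50 bases after the RefSeq start (GRCm38.p6, plus strand, 5′ to 3′), at chr8:94178839-94179138 for *Mt1* and chr8:94172368-94172667 for *Mt2*. Capitals mark matches to the core of the metal response element that MTF1 binds, searched as TGCACNC and TGCGCNC on both strands, and no matches overlapped.
Mt1: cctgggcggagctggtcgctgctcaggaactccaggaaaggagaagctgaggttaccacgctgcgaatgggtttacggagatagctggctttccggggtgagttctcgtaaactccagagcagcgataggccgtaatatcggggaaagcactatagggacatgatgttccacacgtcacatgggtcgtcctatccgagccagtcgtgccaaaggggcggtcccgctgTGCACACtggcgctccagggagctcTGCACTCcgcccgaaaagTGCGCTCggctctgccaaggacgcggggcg
Mt2: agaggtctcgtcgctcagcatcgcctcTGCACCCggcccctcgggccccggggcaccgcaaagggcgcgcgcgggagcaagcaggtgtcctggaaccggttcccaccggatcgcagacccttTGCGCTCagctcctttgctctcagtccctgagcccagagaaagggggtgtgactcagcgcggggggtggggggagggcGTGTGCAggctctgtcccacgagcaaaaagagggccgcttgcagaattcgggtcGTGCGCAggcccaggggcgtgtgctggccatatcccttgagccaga
The *Mt1* window held 3 matches and the *Mt2* window held 4. Of 32851 RefSeq promoter windows of the same 300 bases, 25.7% held 1 or more, 7.11% held 2 or more, 1.97% held 3 or more and 0.517% held 4 or more. The window of *Slc30a1*, whose level is given below for both fits, held 2 matches. GENCODE M21 also lists starts of *Mt1* and *Mt2* up to 152 and 242 bases further downstream, so these windows do not cover every start. A match describes the letters and says nothing of binding in these livers.

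*Mt1* had a lowest, median and highest normalized count of 158, 333 and 562 on Soy-20% and of 345, 724 and 1130 on Soy-20% + SAA. *Mt2* had 54.8, 124 and 162 on Soy-20% and 137, 236 and 340 on Soy-20% + SAA. For both genes 5 of 6 supplemented livers lay above every Soy-20% liver, and liver 3 lay within the Soy-20% range. The log2 difference was 1.13 for *Mt1* (0.52 to 1.74) and 1.06 for *Mt2* (0.51 to 1.61), and 1.24 and 1.13 in livers 1 and 2 alone. Neither was called (edgeR adjusted p = 0.066 and 0.0646), and neither was in the trend-corrected fit. Of the 6 tested genes of metallothionein and zinc transport, 2 were higher and 1 lower at an unadjusted p under 0.05. These shares were 33.3% and 16.7%, against 9.71% and 14.5% of all genes. In livers 1 and 2, 3 of 7 were higher (42.9%, against 3.26%) and 1 lower (14.3%, against 3.55%). The list median was -0.09, or 0.15 in livers 1 and 2, beside 0.00 and -0.00 over all genes tested. The lower gene was *Slc39a4*, a zinc importer, with 131 to 305 on Soy-20% and 101 to 194 on Soy-20% + SAA, a log2 difference of -0.59 (-1.09 to -0.10), or -0.83 in livers 1 and 2. *Slc30a1*, a zinc exporter and also a target of MTF1, was named for that role with its values known. It had 403 to 506 and 382 to 546, a log2 difference of -0.03 (-0.23 to 0.18), or 0.21 in livers 1 and 2 (0.01 to 0.42).

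All 24 listed genes of the methionine cycle were tested and none was called. With all livers 10 were higher (41.7%) and 6 lower (25%) at an unadjusted p under 0.05, shares above the 9.71% and 14.5% of all genes, with a list median of 0.11. In livers 1 and 2 alone 0 were higher and 2 lower (8.33%, against 3.55% of all genes), with a median of -0.01. *Gnmt*, which consumes S-adenosylmethionine when the supply is high, had a lowest, median and highest normalized count of 21600, 23200 and 24900 on Soy-20% and of 26100, 29400 and 32800 on Soy-20% + SAA. These did not overlap, and the log2 difference was 0.34 (0.17 to 0.50), or 0.19 in livers 1 and 2 (-0.00 to 0.39). *Gamt*, which uses it to make creatine, differed by 0.39 (0.19 to 0.59), and *Ahcyl2*, a relative of the enzyme that splits S-adenosylhomocysteine, by -0.49 (-0.77 to -0.21). In livers 1 and 2 these were 0.20 and -0.23. The enzymes *Mat1a*, which makes S-adenosylmethionine, and *Bhmt*, which remethylates homocysteine, were named for their roles with their values known. They differed by 0.32 (0.05 to 0.58) and 0.62 (0.16 to 1.08), and by 0.09 and 0.21 in livers 1 and 2, with overlap of the diets for both.

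In transsulfuration and cysteine breakdown, 17 genes were tested and none was called. At an unadjusted p under 0.05, 4 were higher (23.5%) and 5 lower (29.4%) with all livers, against 9.71% and 14.5% of all genes. With livers 1 and 2, 1 was higher (5.88%) and 3 lower (17.6%), against 3.26% and 3.55% of all genes. The list medians were -0.05 with all livers and -0.03 with livers 1 and 2. *Cbs*, the first enzyme of transsulfuration, had 2450 to 3640 normalized counts on Soy-20% and 3080 to 3890 on Soy-20% + SAA, a log2 difference of 0.11 (-0.10 to 0.32). In livers 1 and 2 it was -0.03 (-0.32 to 0.26), so no difference was detectable in either fit. *Cth*, the second enzyme, differed by -0.45 (-0.84 to -0.05) with all livers and by -0.09 in livers 1 and 2. Its 3′ GC content was 23%, and the part of this in the difference was not tested. *Csad*, of taurine synthesis, had 9640, 11300 and 12100 on Soy-20% and 6150, 7790 and 11400 on Soy-20% + SAA, a log2 difference of -0.40 (-0.71 to -0.10) that was -0.37 in livers 1 and 2. These 3 genes were named for their roles with their values known. By the naming rule, *Baat*, which conjugates bile acids with taurine, differed by -0.67 (-0.19 in livers 1 and 2), *Papss2*, which makes the sulfate donor, by 0.39 (0.15) and *Tstd1*, a thiosulfate sulfurtransferase-like gene, by 0.49 (0.53). *Baat* did not overlap between the diets (2300 to 2600 against 1020 to 2120), but the 2 highest supplemented values were those of livers 1 and 2.

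Of 44 glutathione and NRF2 target genes tested, 2 were higher (4.55%, against 9.71% of all genes) and 10 lower (22.7%, against 14.5%) at an unadjusted p under 0.05. With livers 1 and 2 the counts were 0 and 5 (11.4% lower, against 3.55% of all genes), with list medians of -0.06 and -0.14. *Gsta4* (chromosome 9, 78182774 to 78209349), a glutathione transferase that acts on lipid aldehydes, had 587, 717 and 889 on Soy-20% and 416, 525 and 632 on Soy-20% + SAA. Livers 1 and 2 held the lowest supplemented values, while livers 4 and 6 overlapped with Soy-20%. The log2 difference was -0.48 with all livers (-0.73 to -0.23) and -0.77 in livers 1 and 2 (-1.08 to -0.46), and it was called in the trend-corrected fit (edgeR adjusted p = 0.0494). *Gstp1*, a transferase with a near-identical copy, had 402, 711 and 1130 on Soy-20% and 329, 373 and 779 on Soy-20% + SAA, with a difference of -0.79 (-1.35 to -0.23), or -1.10 in livers 1 and 2. *Mgst3* and thioredoxin *Txn1* differed by -1.39 and -0.70, and by -0.52 and -0.27 in livers 1 and 2. *Gclc* and *Gclm*, the subunits of the enzyme that limits glutathione synthesis, were named for that role and differed by -0.38 (-0.67 to -0.09) and -0.24 (-0.44 to -0.04), or -0.11 and -0.14 in livers 1 and 2.

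*Slc38a4*, a small neutral amino acid transporter, had a lowest, median and highest normalized count of 7110, 7620 and 8110 on Soy-20% and of 8120, 9550 and 9970 on Soy-20% + SAA. The lowest supplemented liver lay just above the highest Soy-20% liver. The log2 difference was 0.29 (0.14 to 0.43), and 0.30 in livers 1 and 2, and it was called in the trend-corrected fit (edgeR adjusted p = 0.0494). *Slc38a3*, a glutamine transporter, had 3130 to 3910 and 4030 to 5220, a difference of 0.36 (0.33 in livers 1 and 2), and did not overlap either. *Slc3a1*, a subunit of the cystine and basic amino acid carrier, had 139 to 359 and 123 to 167, with a difference of -0.77 (-0.76). Of the 20 transporters tested, 5 were higher and 3 lower at an unadjusted p under 0.05. These shares were 25% and 15%, against 9.71% and 14.5% of all genes. In livers 1 and 2 the shares were 9.52% and 4.76%, against 3.26% and 3.55%. The list medians were -0.04 and, in livers 1 and 2, -0.00.

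*Oat* (chromosome 7, 132557478 to 132576398), ornithine aminotransferase, had 2840, 3150 and 3690 on Soy-20% and 3960, 4940 and 7560 on Soy-20% + SAA. The groups did not overlap, and the log2 difference was 0.72 (0.44 to 1.0), 0.58 in livers 1 and 2 (0.35 to 0.81), and called in the trend-corrected fit (edgeR adjusted p = 0.0367). Its 3′ GC content was 31.5%. *Agxt*, an aminotransferase that detoxifies glyoxylate, had 655 to 903 and 916 to 1300, a difference of 0.50 (0.38). *Ftcd*, of histidine breakdown and the folate cycle, had 2860 to 3260 and 3320 to 5340, a difference of 0.50 that was 0.18 in livers 1 and 2 (-0.01 to 0.37), and was called in the trend-corrected fit. Of 43 genes of amino acid breakdown and the urea cycle, 15 were higher (34.9%) and 7 lower (16.3%) at an unadjusted p under 0.05. Over all genes the shares were 9.71% and 14.5%. With livers 1 and 2, 3 were higher (6.98%, against 3.26%) and 1 lower (2.33%, against 3.55%). The list medians were 0.08 and, in livers 1 and 2, -0.01. Of 22 serine, glycine and folate genes, 2 were higher (9.09%, against 9.71% of all genes) and 7 lower (31.8%, against 14.5%). With livers 1 and 2, 0 were higher and 2 lower (8.7%, against 3.55%). The list medians were -0.13 and, in livers 1 and 2, -0.01. *Shmt2*, a serine hydroxymethyltransferase, differed by 0.33 (0.17 in livers 1 and 2).

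Target genes of methionine restriction gave no call. *Asns*, asparagine synthetase and a target of ATF4, had 15.1, 21.9 and 29.6 on Soy-20% and 3.86, 14.8 and 50.8 on Soy-20% + SAA, a log2 difference of -0.00 (-1.01 to 1.01). *Fgf21*, a hormone of the fasting and low-protein response, had 20.9, 43.7 and 53.7 and 9.58, 21.5 and 60.2, a difference of -0.57 (-1.34 to 0.19) that was 0.17 in livers 1 and 2. *Psat1*, of serine synthesis, had 4.02 to 12.6 and 1.94 to 8.39 and did not pass the filter on low counts. The supplemented livers spanned the whole Soy-20% range for *Asns* and *Fgf21*, and the intervals are wide, so that only large changes of these low-count genes would have been detectable. By contrast, means on Cas-5% and Soy-10% were 295 and 155 for *Asns* and 174 and 171 for *Fgf21*, well above both 20% soy diets (22.2 and 23 for *Asns*, 39.3 and 26.7 for *Fgf21*, in the order Soy-20% and Soy-20% + SAA).

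Of 31 ATF4 targets tested, 3 were higher and 4 lower at an unadjusted p under 0.05. These shares were 9.68% and 12.9%, against 9.71% and 14.5% of all genes. The list medians were -0.02 and, in livers 1 and 2, -0.09. *Cebpb* (chromosome 2, 167688915 to 167690418), a transcription factor, had 732, 846 and 1010 on Soy-20% and 364, 478 and 671 on Soy-20% + SAA. It did not overlap between the diets, with a log2 difference of -0.84 (-1.16 to -0.52), or -0.49 in livers 1 and 2 (-0.81 to -0.16), and was called in the trend-corrected fit (edgeR adjusted p = 0.0494). *Psph*, of serine synthesis, had 49.1 to 77.9 and 42.4 to 57.3, a difference of -0.41 (-0.27).

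In lipid synthesis, *Fads2* (chromosome 19, 10062765 to 10101746), the desaturase that opens the synthesis of polyunsaturated fatty acids, had 106, 127 and 175 on Soy-20% and 173, 243 and 423 on Soy-20% + SAA. Liver 2 of the supplemented group lay just below the highest Soy-20% liver. The log2 difference was 1.10 (0.66 to 1.53), or 0.59 in livers 1 and 2 (0.20 to 0.98), and was called in the trend-corrected fit (edgeR adjusted p = 0.0494). The desaturase *Fads1*, next to it in the pathway, had 3040 to 5060 and 4060 to 7730, a difference of 0.63 (0.33). *Fasn*, fatty acid synthase, had 1100, 2380 and 8010 and 2740, 4870 and 9850, a difference of 0.64 (-0.30 to 1.57) that was -0.06 in livers 1 and 2. *Scd1*, stearoyl-CoA desaturase, had 47000, 61600 and 79400 and 44400, 70400 and 144000, a difference of 0.34 (-0.20 to 0.88) that was 0.07 in livers 1 and 2. For both genes the diets overlapped widely. *Srebf1*, the regulator of these genes, differed by -0.91 with all livers and -0.23 in livers 1 and 2. Of 29 lipogenic genes, 3 were higher (10.3%, against 9.71% of all genes) and 1 lower (3.45%, against 14.5%) at an unadjusted p under 0.05. The median of 0.19 turned to -0.12 in livers 1 and 2.

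Of 25 cholesterol synthesis genes, all tested, 7 were higher (28%, against 9.71% of all genes) and 0 lower at an unadjusted p under 0.05. Over all genes 14.5% were lower. The medians were 0.28 and 0.15, although with livers 1 and 2 alone no gene of the list reached that p. *Fdft1*, squalene synthase, had 300, 439 and 772 on Soy-20% and 585, 656 and 871 on Soy-20% + SAA, a difference of 0.56 (0.17 to 0.95), or 0.36 in livers 1 and 2. *Msmo1*, a sterol oxidase, had 1630 to 4140 and 2880 to 3850, a difference of 0.46 (0.09 to 0.82), or 0.40 in livers 1 and 2. In both genes Soy-20% liver 1 was the highest of its group. Of 37 fatty acid oxidation genes, 4 were higher (10.8%, against 9.71%) and 8 lower (21.6%, against 14.5%), with medians of 0.08 and -0.14. *Cpt1a*, which controls fatty acid entry into mitochondria, differed by 0.43 (0.29), the carnitine carrier *Slc25a20* by -0.51 (-0.15) and *Eci1* by -0.51 (-0.15). Of 18 bile acid genes, 2 were higher (11.1%, against 9.71%) and 3 lower (16.7%, against 14.5%), with medians of -0.07 and 0.03. *Cyp8b1*, which sets cholic acid synthesis, differed by 0.34 (0.18), and the racemase *Amacr* by -1.15 with all livers and -0.20 in livers 1 and 2.

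**Figure D3:**
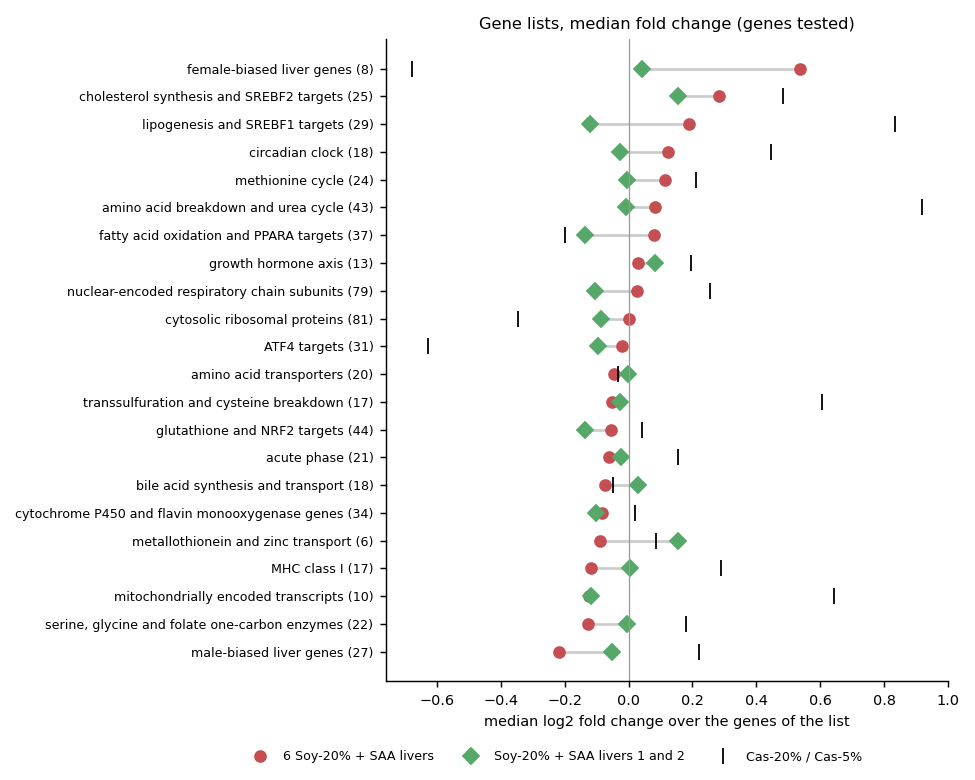
Median log2 fold change (horizontal axis) of 22 gene lists, with the number of genes tested in brackets, for all 6 Soy-20% + SAA livers (circles) and livers 1 and 2 (diamonds) against Soy-20%, beside Cas-20% against Cas-5% (vertical marks). List medians with livers 1 and 2 lay between -0.14 and 0.15, and several, among them lipogenesis (0.19 and -0.12), changed sign between the circles and diamonds.

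*Cyp2c37* (chromosome 19, 39992424 to 40012243), a cytochrome P450 that oxidises arachidonic acid, was one of the lower genes in every supplemented liver. It had a lowest, median and highest normalized count of 1030, 1080 and 1370 on Soy-20% and of 532, 690 and 877 on Soy-20% + SAA. The log2 difference was -0.73 (-0.98 to -0.47), -0.63 in livers 1 and 2 (-0.89 to -0.37), and it was called in the trend-corrected fit (edgeR adjusted p = 0.046). *Cyp2c50*, of the same gene cluster and with 30.5% GC at its 3′ end like *Cyp2c37*, differed by -0.81 with all livers but by -0.16 in livers 1 and 2. Of 34 cytochrome P450 and flavin monooxygenase genes, 1 was higher (2.94%) and 3 lower (8.82%, against 14.5% of all genes) at an unadjusted p under 0.05. With livers 1 and 2, 0 were higher and 7 lower (20.6%, against 3.55% of all genes). The medians were -0.08 with all livers and -0.10 with livers 1 and 2. Reads of such gene families may be split between similar copies.

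Genes known to differ between male and female livers were read because many follow growth hormone and diet. Of 27 male-biased genes, 2 were higher (7.41%, against 9.71% of all genes) and 5 lower (18.5%, against 14.5%) at an unadjusted p under 0.05. The list medians were -0.22 and, in livers 1 and 2, -0.05. *Cyp4a12b*, a fatty acid hydroxylase with a close copy, had 372, 558 and 618 on Soy-20% and 602, 845 and 1100 on Soy-20% + SAA, a difference of 0.65 (0.34 to 0.96) that was 0.69 in livers 1 and 2. *Cib3* had 15.8 to 46.1 and 31.6 to 106, a difference of 1.10 (1.70), with the highest supplemented value in liver 2. Both of these genes ran against the list median of -0.22. On the lower side, *Mup9*, given above, differed by -2.11 (-2.17). Only 8 of 26 female-biased genes passed the filter, 4 of them higher (50%, against 9.71% of all genes) and 0 lower. Their median was 0.54. In livers 1 and 2, 2 of 9 were higher and 1 lower, with a median of 0.04. With the GC slope as a covariate the 8 genes had a median of -0.08, 3 being higher and 5 lower whatever their p. The median was -0.25 over the 15 genes of the DESeq2 test and -0.26 over the 12 that passed the filter with all 30 livers. The direction of the median thus differed with the genes included and with the fit. *Nipal1*, a magnesium transporter-like gene, had 3.14 to 76.5 and 33.5 to 188, a difference of 1.70 (2.07), *Abcd2*, a peroxisomal transporter, differed by 0.50 (0.70) and *Atp6v0d2* by 1.15 (0.69). *Cyp4a12b*, *Cib3*, *Nipal1*, *Abcd2* and *Atp6v0d2* all overlapped between the diets. Of 13 growth hormone axis genes, 1 was higher (7.69%, against 9.71%) and 2 lower (15.4%, against 14.5%), with medians of 0.03 and 0.08. The receptor *Ghr* differed by -0.29 (-0.03 in livers 1 and 2), *Igfbp3* by -1.23 (-0.18) and *Igfbp4* by 0.33 (0.08).

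Immune, clock, respiratory and ribosomal genes were read as further lists. Of 21 acute phase genes, 1 was higher and 3 lower at an unadjusted p under 0.05. These shares were 4.76% and 14.3%, against 9.71% and 14.5% of all genes. The list medians were -0.06 and, in livers 1 and 2, -0.02. *Lbp*, which binds bacterial lipopolysaccharide, had 516, 582 and 754 on Soy-20% and 413, 443 and 476 on Soy-20% + SAA, with no overlap, a difference of -0.44 (-0.63 to -0.25) that was -0.35 in livers 1 and 2 and was called in the trend-corrected fit (edgeR adjusted p = 0.0494). The iron hormone gene *Hamp* differed by -0.58 (-0.58) and serum amyloid *Saa2* by 0.87 (0.51), with overlap. Of 17 MHC class I genes, 3 were higher (17.6%, against 9.71% of all genes) and 7 lower (41.2%, against 14.5%). With livers 1 and 2, 1 of 18 was higher (5.56%, against 3.26%) and 0 lower. The list medians were -0.12 and, in livers 1 and 2, 0.00. *H2-Q1* differed by 1.14 (0.91) and *H2-Q10* by 0.43 (0.18), both of a family whose reads are hard to assign, and *B2m* by -0.31 (-0.14). Of 18 clock genes, 2 were higher (11.1%, against 9.71%) and 4 lower (22.2%, against 14.5%), with medians of 0.12 and -0.03. *Tef* and *Clock* differed by 0.76 and -0.40 but by 0.09 and -0.03 in livers 1 and 2.

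Of 79 respiratory chain subunits encoded in the nucleus, 4 were higher (5.06%) and 12 lower (15.2%) at an unadjusted p under 0.05 with all livers. Over all genes the shares were 9.71% and 14.5%. With livers 1 and 2, 0 were higher and 16 lower (20.3%, against 3.55% of all genes). The medians were 0.03 with all livers and -0.11 with livers 1 and 2. Whatever their p, 48 were higher and 31 lower with all livers, and 5 and 74 with livers 1 and 2. *Ndufb3* had 2300 to 3060 on Soy-20% and 1230 to 2190 on Soy-20% + SAA, *Uqcrfs1* had 2600 to 3010 and 1870 to 2360, and *Atp5e* had 3510 to 4820 and 3010 to 3830. The first 2 did not overlap between diets, and the log2 differences of the 3 were -0.58, -0.35 and -0.36, or -0.34, -0.22 and -0.22 in livers 1 and 2. All 10 mitochondrially encoded transcripts in the table were tested, 0 being higher and 4 lower (40%, against 14.5% of all genes), with medians of -0.13 and -0.12. In livers 1 and 2 the share lower was 20%. *mt-Nd1* had 157000, 177000 and 203000 on Soy-20% and 139000, 144000 and 160000 on Soy-20% + SAA, a difference of -0.27 (-0.31), while *mt-Nd3* and *mt-Nd6* differed by -1.59 (-0.50) and -0.82 (-0.37). Of 81 cytosolic ribosomal protein genes, 2 were higher and 12 lower, and 0 and 6 with livers 1 and 2, with medians of 0.00 and -0.09, and *Rpl19*, *Rps18* and *Rpl35a* differed by -0.41, -0.39 and -0.36, or -0.24, -0.16 and -0.33 in livers 1 and 2. The share of ribosomal protein genes lower was 14.8% with all livers and 7.41% with livers 1 and 2, against 14.5% and 3.55% of all genes. Many ribosomal protein genes have processed copies that can take reads.

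Markers of other cell types were read from lists of Kupffer and immune, stellate, sinusoidal endothelial, bile duct, red blood cell, pancreatic, fat and muscle genes. Summed normalized counts were 4820 to 10400 on Soy-20% and 7470 to 10700 on Soy-20% + SAA for Kupffer and immune genes, 4910 to 5910 and 5040 to 6630 for stellate genes, and 3660 to 4610 and 3980 to 4260 for endothelial genes. They were 393 to 548 and 346 to 519 for bile duct genes, 10100 to 29000 and 11900 to 18700 for red blood cell genes, 202 to 462 and 188 to 425 for pancreatic acinar genes, 247 to 658 and 255 to 433 for fat genes, and 42.1 to 80 and 29 to 53.7 for muscle genes. The groups overlapped for each list, and the 4 islet markers were not among the genes of the table. Of 12 hepatocyte, 17 immune, 13 stellate and 10 endothelial markers tested, 1, 0, 1 and 0 were higher at an unadjusted p under 0.05. These shares were 8.33%, 0%, 7.69% and 0%, against 9.71% of all genes. The numbers lower were 2, 1, 0 and 3, or 16.7%, 5.88%, 0% and 30%, against 14.5%. None of the 3 bile duct, 5 red blood cell, 1 acinar, 2 fat and 2 muscle markers tested reached an unadjusted p under 0.05. With livers 1 and 2, 1 stellate marker was higher, 1 red blood cell marker was lower and no other marker reached it. Whatever their p, 11 of the 17 immune markers were higher and 6 lower with all livers, with a median of 0.10. In livers 1 and 2, 7 were higher and 10 lower, with a median of -0.07. *Marco*, a scavenger receptor of Kupffer cells, had 28.1, 73.7 and 354 on Soy-20% and 15.5, 39.3 and 47.9 on Soy-20% + SAA, a difference of -1.66 (-2.80 to -0.52), or -1.61 in livers 1 and 2 (-3.52 to 0.30), in which Soy-20% liver 1 held the highest value.

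Cas-20% against Cas-5%, a contrast in methionine, cystine and protein that shares no liver with the soy pair, was set beside these values. There 3008 of 12076 genes (24.9%) were called. Of the 144 genes of the stricter selection, 143 were tested for casein and 41 were called, which at 28.7% was near that background. In all 41 the direction was the same, higher on Cas-20% for 23 genes that were higher with the supplement and lower on Cas-20% for 18 that were lower. Of the 400 genes with an unadjusted p under 0.05 in both soy fits, 128 were called for casein, 115 of them (89.8%) in the same direction. Of the 2892 genes with an unadjusted p under 0.05 with all supplemented livers, 832 were called, 600 of them (72.1%) in the same direction. Whatever their soy p, 64.3% of 1606 genes called higher on Cas-20% were higher with the supplement, with all supplemented livers. Of 1357 genes called lower on Cas-20%, 39.1% were higher with the supplement. In the smaller soy fit these shares were 53.7% of 1611 and 37.2% of 1380. Over all genes they were 50.7% and 48.9% in these fits. The same direction was thus already the more common among casein calls before selection on soy p. Genes are not independent of each other, and these shares carry no test.

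Several genes had a larger difference for casein than for the supplement. *Dct* differed by 5.51 log2 units between Cas-20% and Cas-5% and by 1.34 with the soy supplement. *Upp2* differed by 2.61 and 1.11, *Chic1* by 2.57 and 1.37, *Oat* by 2.46 and 0.72 and *Agxt* by 2.0 and 0.50. *Slc38a3* and *Slc38a4* differed by 1.16 and 1.11 for casein, against 0.36 and 0.29 for soy. Among lower genes, *Nup62cl* differed by -2.40 for casein, *Cyp2c37* by -0.94 and *Sdr9c7* by -0.81. *Sdr9c7* was an exception, with a larger value in the soy pair (-1.50).

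Other genes are set side by side. *Gsta4* and *Cebpb* were lower with the supplement, while for casein their log2 differences of 0.29 and 0.22 were not called (edgeR adjusted p = 0.323 and 0.516). *Asns*, *Psat1* and *Fgf21* were lower on Cas-20% by 3.76, 5.02 and 2.56 log2 units, each called, with no call in the soy pair. *Csad* fell by 2.72 and *Bhmt* rose by 2.69 on Cas-20%, against -0.40 and 0.62 with the supplement. The difference between the contrasts was not tested for any gene.

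Levels on the 5 diets, in order of the methionine content on the labels, put Soy-20% between the low-protein and the other diets for part of these genes. Mean normalized counts of *Dct* were 13.6 on Soy-10% (0.13 g methionine per 100 g), 2.48 on Cas-5% (0.15 g), 50 on Soy-20% (0.22 g), 124 on Cas-20% (0.57 g) and 127 on Soy-20% + SAA (0.58 g). For *Upp2* they were 1250, 531, 1800, 3270 and 3910, and for *Oat* 2450, 1530, 3190, 8500 and 5300. *Chic1* differed in that Soy-20% (15.9) stood with Soy-10% (12.1) and Cas-5% (10.6), below Cas-20% (64.9) and Soy-20% + SAA (41.4). Protein and its source differ along this order as well, and their parts cannot be told apart from methionine. *Dct*, *Upp2*, *Oat* and *Chic1* were in the stricter selection as higher with the supplement. That Soy-20% lay below Soy-20% + SAA was therefore fixed by the selection. *Mup9* and *Gsta4* were highest on the 2 unsupplemented soy diets, with means of 1650 and 2020 for *Mup9* on Soy-10% and Soy-20% against 469 to 793 on the other 3 diets, and of 796 and 720 for *Gsta4* against 431 to 533.

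**Figure D4:**
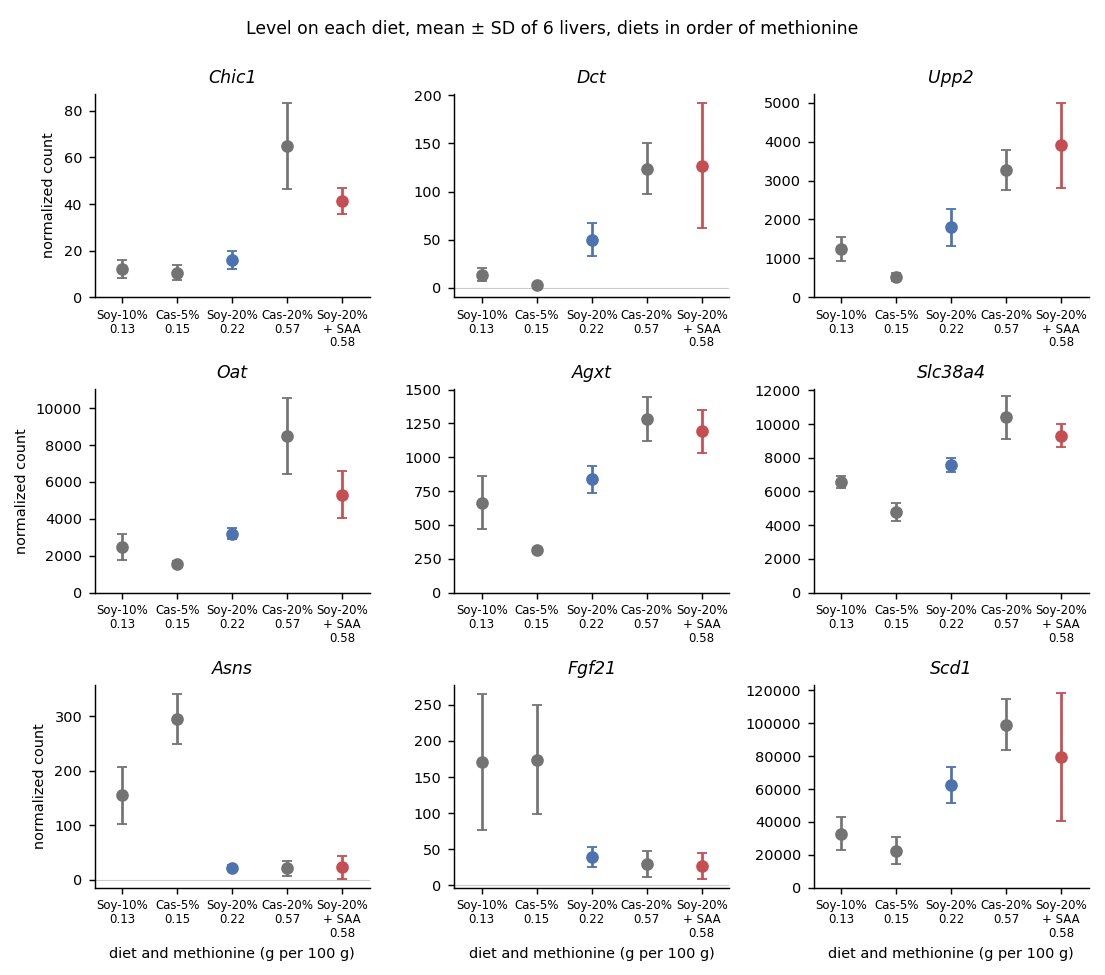
Normalized count (vertical axes) of 9 genes on the 5 diets, placed in order of methionine content (given under each diet, in g per 100 g), as mean ± SD of 6 livers, with Soy-20% in blue and Soy-20% + SAA in red. *Dct*, *Upp2*, *Oat*, *Agxt* and *Slc38a4* had their Soy-20% mean between those of the low-protein diets and of Cas-20% and Soy-20% + SAA. The stricter selection, which held these genes, fixed that Soy-20% lay below Soy-20% + SAA. By contrast, *Asns* and *Fgf21* were high on Cas-5% and Soy-10% only.

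**Figure D5:**
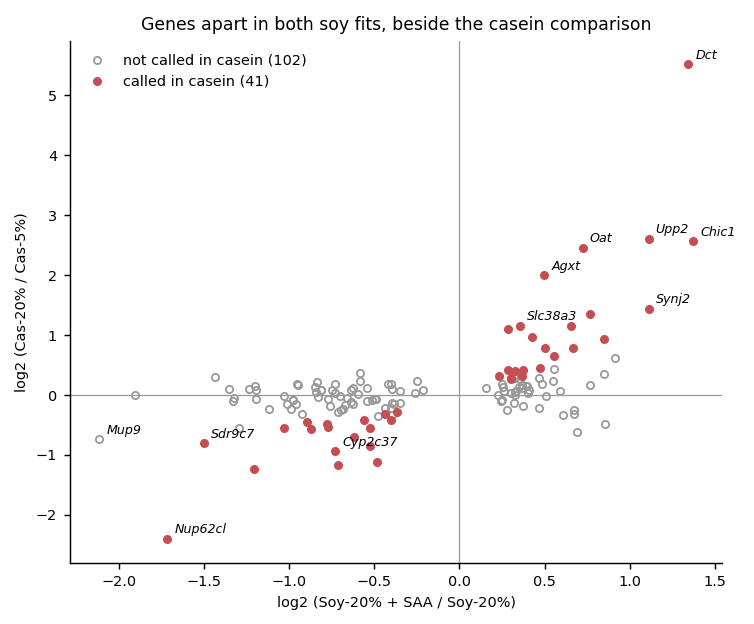
Log2 fold change of Cas-20% against Cas-5% (vertical axis) and of Soy-20% + SAA against Soy-20% (horizontal axis) for 143 genes apart in both soy fits, with the 41 genes called for casein in red. All red points lie in the upper right or lower left, from *Nup62cl* at -2.40 to *Dct* at 5.51 on the casein axis.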

How the data were processed

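Livers of 30 mice on 5 diets were profiled by 3′ RNA-seq, and 12 libraries of Soy-20% and Soy-20% + SAA were compared. The authors deposited raw counts per gene (14173 genes with a total of 90 or more) against GRCm38. Mapping and counting used the Lexogen QuantSeq FWD pipeline on the Bluebee platform. The aligner, counter and strand setting inside it are not given in the sources used here, and per the labels' processing notes R 4.0.3 and DESeq2 1.30 were used. Totals per library were 7694015 to 14565542 counts, which limits precision for low genes. Groups came from the labels.

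From these counts, edgeR 4.0.16 (R 4.3.3) was run with TMM scaling, filterByExpr, a quasi-likelihood test and Benjamini-Hochberg adjustment at 0.05. The casein pair was fitted separately. Per-liver levels are the second deposited table, a signal the authors made by dividing counts by DESeq2 size factors over all 30 livers. The 3′ GC content is that of the last 200 bases of GENCODE M21 transcripts. The code was tested on counts simulated from the Soy-20% livers with no 3′ bias in any library, so that test does not cover this bias. Alternatives included limma 3.58.1 and DESeq2 1.42.0. Genes named were the 8 largest rises and falls of the stricter selection, up to 3 members of each list with the smallest unadjusted p, all with a mean of 10 or more normalized counts on 1 diet, the called gene and 5 target genes of the study's PCR. A few more were named for a role. Some genes that this rule names are not reported here. Members and lists were chosen with earlier results of these data known. Replicate numbers did not pair livers: 1 of 6 supplemented libraries correlated best with its own number. Promoter sequences are from RefSeq. Intervals in the text are 95% confidence intervals of the fit. Among the libraries of Soy-20%, and among those of Soy-20% + SAA, none was a duplicate of another.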

Additional observations from a re-analysis of the deposited data

Results flagged for a closer look

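In 14 of 182 groups tested, 7.69%, the highest or lowest of 6 livers stood apart from the others by Dixon's criterion. For independent, normally distributed values chance gives this in about 1 of 20 groups. Counts were not transformed here and genes of the same livers are not independent, so the 2 rates are not strictly comparable. All 14 stood apart on the high side. On Soy-20%, liver 1 stood apart for *Fads1* at 5060 normalized counts (next 3700), *Msmo1* at 4140 (2510) and *Marco* at 354 (123). Liver 2 stood apart for *Lbp* at 754 (600) and *Saa2* at 318 (174), and liver 3 for *Cpt1a* at 2540 (1920), *Slc25a20* at 2360 (1810) and *Igfbp4* at 18700 (15400). Liver 5 stood apart for *Cib3* at 46.1 (25.1), and the highest total count of the group, 12046128, also stood apart. On Soy-20% + SAA, the high livers were liver 1 for *Fgf21* at 60.2 (27.6) and *mt-Nd6* at 121 (69.7), liver 2 for *Cib3* at 106 (47) and liver 4 for *Gstp1* at 779 (414).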

How the results depend on the processing

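The number of genes called between Soy-20% + SAA and Soy-20%, 1 as reported, was 2 with no filter or with DESeq2 size factors, 873 with the DESeq2 test, 1692 with limma's library quality weights, 65 with a robust fit and 1793 with all 30 livers in the fit. It was 60 with the GC trend removed, 32 among 5935 genes at or above the median 3′ GC, and 2978 with livers 3 to 6 alone. It was 0 with the GC slope as a covariate, with or without the other diets (1019 and 1065 genes at an unadjusted p under 0.05), and 0 with livers 1 and 2, with or without the other diets (844 and 860). Leaving out 1 library gave 0 to 1587 calls: 1587 without Soy-20% + SAA liver 1, 1118 without liver 2, 3 without liver 3, and 0 or 1 otherwise. With the replicate block, 1 gene was called, lower, and so not *Chic1*, and with the block and the GC slope 0 were called. The casein count of 3008 stayed between 2601 and 3085.

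Of 2330 values of 88 named genes over 27 alternatives, 36 changed sign, all in 8 genes. *Asns* became 0.00 with DESeq2 size factors, 0.04 with the DESeq2 test, 0.32 with the GC covariate, 0.35 and 0.33 with livers 1 and 2 without and with the other diets, and 0.13 with the block and the GC slope, and its values with 1 library left out ran from -0.39 to 0.25. *Fgf21* became 0.02 with the GC covariate, 0.34 with all 30 livers and the covariate, and 0.17 and 0.18 with livers 1 and 2. *Fasn* became -0.06 with livers 1 and 2, with or without the other diets. *Scd1* became -0.05 with the GC covariate and -0.13 with the block and it. *Cbs* became -0.03 with livers 1 and 2, with or without the other diets, and -0.05 with all 30 livers and the GC covariate. *Cth* became 0.03 with the GC covariate and 0.10 with the block and it, and *Gclc* 0.04 with the latter. *Slc30a1* became 0.19 with the GC covariate, 0.21 with all 30 livers and the covariate and with livers 1 and 2, with or without the other diets, 0.04 with the GC trend removed, 0.22 with the block and the GC slope, and -0.09 to 0.03 with 1 library left out. The causes were not tested.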
